A study of Mus musculus with 1920 samples.

Results

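Olfm4, Smoc2, Slc12a2, Prom1, Msi1, Cdca7, Cdk6 and Nrn1 are 8 genes used as markers of the intestinal stem cell (ISC) at the crypt base. They were chosen by name as 8 of the 55471 gene rows of the deposited table, and are described here in single sorted cells, beside one another and beside Lgr5, the receptor gene whose reporter was used for the sort. All mice carried B6.129P2-Lgr5tm1(cre/ERT2)Cle/J, a knock-in that places eGFP and a tamoxifen-dependent Cre under control of the Lgr5 locus. Small-intestinal crypts of 3 young and 4 aged mice (the latter labelled Old) were dissociated, and single cells of the Lgr5 GFP-high gate were sorted into plates and sequenced after full-length cDNA amplification. The gate selects on a reporter of one Lgr5 allele, so that Lgr5 reads in these cells come after a selection on Lgr5 itself. Neither sex nor age in weeks is given by the labels for these animals. The 1836 cells in which 1000 genes or more were detected are used here, 160 to 376 per mouse, with median totals per mouse of 211790 to 344568 reads.

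Lgr5 is a receptor for R-spondins, which amplify Wnt signals at the crypt base, and cells that hold it divide to replace the crypt's other lineages. Olfm4 encodes a secreted glycoprotein of the olfactomedin family and is responsive to Notch. Smoc2 encodes a secreted matricellular calcium-binding protein. Slc12a2 encodes the basolateral sodium-potassium-chloride cotransporter NKCC1. Prom1 encodes the membrane glycoprotein CD133 of microvilli and other protrusions. Msi1 encodes the RNA-binding protein Musashi-1, a regulator of translation that acts on the Notch inhibitor Numb. Cdca7 encodes a partner of the chromatin remodeller HELLS and is induced by MYC and E2F. Cdk6 encodes a kinase partner of D-type cyclins at entry to the cell cycle. Nrn1 encodes neuritin, a small surface protein anchored by a lipid tail.

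RefSeq start sites on GRCm38.p6 were found for 4 of the 8 genes, Olfm4, Prom1, Cdca7 and Cdk6. These starts lie inside the GENCODE gene spans given further below and are not the starts of those spans. The distance is largest for Olfm4, whose span begins at 79984081. The 250 bases upstream of the start are shown because Olfm4 had its highest rho over cells, among these 4 genes, with Cdca7 (median 0.50) and Prom1 (0.47), and a lower one with Cdk6 (0.36). Both strands were searched for 6 short motifs, and capitals mark the matches. The regions are chr14:80000052-80000301 on the plus strand for Olfm4, chr5:44101737-44101986 on the minus strand for Prom1, chr2:72475969-72476218 on the plus strand for Cdca7 and chr5:3343643-3343892 on the plus strand for Cdk6.
Olfm4: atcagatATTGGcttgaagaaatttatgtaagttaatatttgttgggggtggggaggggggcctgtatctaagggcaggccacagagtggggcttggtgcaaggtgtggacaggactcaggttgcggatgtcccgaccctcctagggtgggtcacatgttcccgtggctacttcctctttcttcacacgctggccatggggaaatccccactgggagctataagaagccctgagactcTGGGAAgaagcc
Prom1: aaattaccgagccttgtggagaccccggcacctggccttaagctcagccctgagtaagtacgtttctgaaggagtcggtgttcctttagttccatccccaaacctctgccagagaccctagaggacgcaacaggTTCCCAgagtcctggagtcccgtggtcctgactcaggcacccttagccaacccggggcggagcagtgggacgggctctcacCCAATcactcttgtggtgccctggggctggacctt
Cdca7: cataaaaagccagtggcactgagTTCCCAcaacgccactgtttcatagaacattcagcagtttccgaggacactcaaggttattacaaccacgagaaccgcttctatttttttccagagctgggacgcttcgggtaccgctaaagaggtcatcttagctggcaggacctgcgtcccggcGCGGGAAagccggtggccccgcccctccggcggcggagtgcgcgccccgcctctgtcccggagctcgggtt
Cdk6: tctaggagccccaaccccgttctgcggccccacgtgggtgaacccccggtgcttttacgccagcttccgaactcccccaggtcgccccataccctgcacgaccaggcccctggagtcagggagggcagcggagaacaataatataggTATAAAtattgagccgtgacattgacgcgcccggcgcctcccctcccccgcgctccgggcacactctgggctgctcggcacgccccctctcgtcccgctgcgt
The core motif TGGGAA of RBPJ, the DNA-binding factor of the Notch pathway, was matched 12 bases before the start of Olfm4, 116 before that of Prom1 and 227 before that of Cdca7. It occurred in 25.6% of the 32851 RefSeq promoter windows of 300 bases, so that a match is common. The E2F motif GCGGGAA was matched 71 bases before the start of Cdca7 and was present in 4.60% of windows. Cdk6 held TATAAA 103 bases before its start (13.6% of windows) and none of the other motifs. The box CCAAT, present in 37.4% of windows, was matched 243 bases before the start of Olfm4 and 35 before that of Prom1. The core CTTTGA of TCF/LEF, the factors of Wnt signals, stands in 16.0% of windows and had no match in these 4 stretches. The same held for the E-box CAGCTG of the type bound by ASCL2, which stands in 16.3% of windows. A second RefSeq window of Prom1, further into the gene, held CTTTGA 8 bases past its start. These matches are letters in a window and no evidence of binding.

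All 8 genes were detected in the sorted cells, at levels that ran from a mean of 2.16 to one of 4984 per exon length. Levels between genes are compared here per length, as RPKM (reads per kilobase of exon, scaled to the TMM total of the summed cells of a mouse). Olfm4 stood at 4984 ± 889 (SD, n = 7 mice), which placed it 9th of the 20877 tested genes with an exon length, and it alone took 1.10% to 1.97% of all reads of a mouse. Smoc2 followed at 140 ± 16.6, Cdca7 at 89.7 ± 22.4, Slc12a2 at 73.7 ± 15.9, Prom1 at 65.9 ± 11.9 and Cdk6 at 45.5 ± 9.90. Lgr5, at 33.3 ± 8.53, was lower per exon length than each of these 6 genes. Nrn1 (10.6 ± 2.41) and Msi1 (2.16 ± 0.56) were the lowest, and Msi1 ranked 11058th. The place of Lgr5 below Cdca7 depends on the exon lengths used, 10264 and 3202 bases. In CPM (summed reads, TMM-scaled, not divided by length), Lgr5 was above Cdca7 in every mouse except aged mouse 3 (177 against 209). Mean CPM was 401 against 324 in the young and 297 against 259 in the aged mice. Olfm4, Smoc2, Slc12a2, Prom1 and Cdk6 stayed above Lgr5 in every mouse.

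The order by RPKM was kept in 7 of 7 mice between all neighbours except Slc12a2 and Prom1, where Slc12a2 was higher in 4 of 7 mice. Among the middle genes, from Smoc2 to Lgr5, the ranges of neighbours overlapped between mice although the order within each mouse did not change, other than for Slc12a2 and Prom1. Olfm4 stood apart from Smoc2, and Nrn1 from both Lgr5 and Msi1, with no overlap of ranges.

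**Figure D1:**
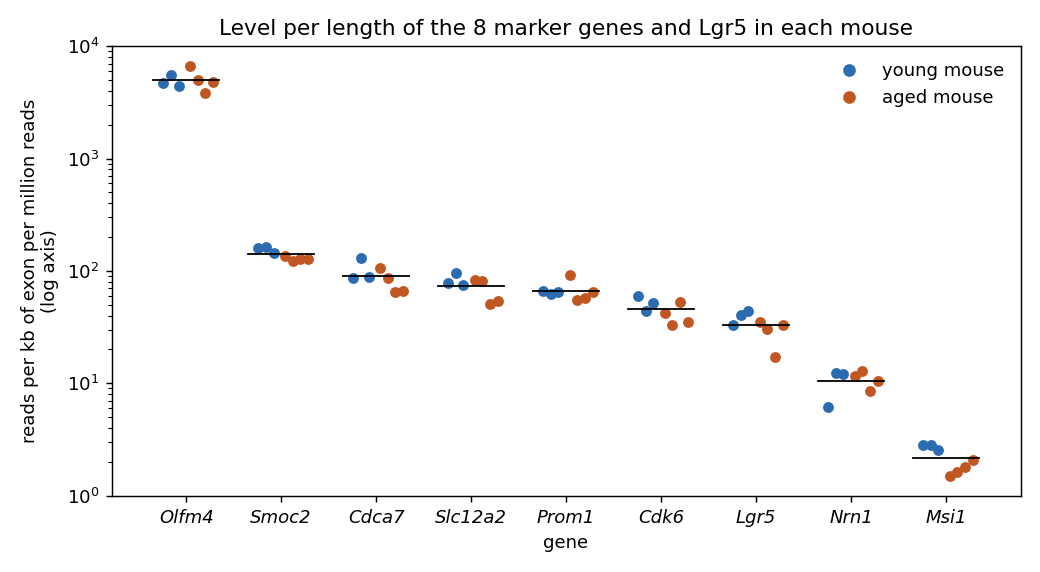
RPKM (log axis) for the 8 genes and Lgr5, one point per mouse (blue young, orange aged) and a line at the mean of 7 mice. Olfm4 (3822 to 6604) lies apart from the rest, the genes from Smoc2 to Lgr5 lie between 17.2 and 163, and Msi1 (mean 2.16) is lowest.

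Relatives of the members, with which reads could in principle be shared, were mostly lower. On the RPKM scale (means of 7 mice), Smoc1 was at 0.182, Olfm1, Olfm2 and Olfml3 at 0.288, 0.268 and 0.0878, and Slc12a3 and Slc12a4 at 0.478 and 0.0415. Slc12a7, a potassium-chloride cotransporter, was present at 7.52 ± 1.15 (SD), a lower level than Slc12a2. Msi2, the other Musashi gene, stood at 2.14 ± 0.38, close to Msi1. Cdca7l, a relative of Cdca7, stood at 23.6 ± 5.29. Cdk4, the other kinase partner of D-type cyclins, stood at 112 ± 16.9 and thus above Cdk6. Olfm3, Slc12a1, Prom2 and Nrn1l did not pass the filter on low counts.

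In GRCm38, on GENCODE release M21, Olfm4 (ENSMUSG00000022026) lies on chromosome 14 from 79984081 to 80023139 and Smoc2 (ENSMUSG00000023886) on chromosome 17 from 14279506 to 14404790. Slc12a2 (ENSMUSG00000024597) spans 57878678 to 57946821 of chromosome 18. Chromosome 5 carries Prom1 (ENSMUSG00000029086, 43993620 to 44102032), Msi1 (ENSMUSG00000054256, 115429599 to 115455698) and Cdk6 (ENSMUSG00000040274, 3341485 to 3531008). Cdca7 (ENSMUSG00000055612) is on chromosome 2 from 72476159 to 72486893 and Nrn1 (ENSMUSG00000039114) on chromosome 13 from 36725361 to 36735131. Prom1 and Nrn1 are read from the minus strand, the other 6 from the plus strand.

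Of the 8 members, 4 share exonic bases with another gene. In Nrn1, 501 exonic bases (chr13:36725780-36726280), 22.3% of its exon length, are shared with the end of Fars2, a gene for mitochondrial phenylalanyl-tRNA synthetase on the other strand. Prom1 shares 424 exonic bases (5.91%) with the antisense gene Gm16401, Olfm4 153 (5.17%) with the lincRNA gene Gm6999 and Cdk6 368 (2.63%) with the antisense gene Gm17590. Whether the counting used strand is not given in the sources used here, so that reads in the shared bases cannot be told apart. Smoc2, Slc12a2, Msi1, Cdca7 and Lgr5 share no exonic base with another annotated gene.

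The question of how the markers are spread over single cells was addressed with the reads of each cell thinned to 100000, which 1732 of the 1836 cells reached. At this depth, Olfm4 was read in 99.4% to 100.0% of the cells of a mouse, Smoc2 in 98.5% to 100.0% and Slc12a2 in 98.8% to 100.0%. Cdk6 (96.6% to 100.0%), Prom1 (96.6% to 100.0%) and Cdca7 (96.6% to 100.0%) were close behind. Lgr5 itself was read in 88.6% to 99.7%, with a lower mean over mice (96.4%) than these 6 genes. Nrn1 was read in 43.2% to 61.4% and Msi1 in 39.7% to 61.0% of the cells of a mouse. Without thinning, in the 1836 cells, the means over mice were 57.9% ± 7.37 (SD, n = 7) for Nrn1 and 68.8% ± 6.48 for Msi1, so that their share depends on depth.

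Most cells held reads of most markers. The median cell of every mouse held reads of 7 of the 8 genes. All 8 were read in 510 cells (29.4%), 7 in 796 (46.0%) and 6 in 391 (22.6%), while 1 cell, of aged mouse 4, held none. The genes that were missing were mainly Msi1 and Nrn1, the lowest of the set.

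The markers also differed in how much their level varied between the cells of a mouse. On the log2(CPM + 1) scale, where CPM is reads scaled to the total of the cell, the SD over cells, averaged over 7 mice, was 1.12 for Smoc2, 1.30 for Slc12a2, 1.35 for Prom1, 1.41 for Cdk6, 1.42 for Olfm4 and 1.47 for Cdca7. Lgr5 varied more, at 1.97, as did Msi1 (2.26) and Nrn1 (2.67), both with many cells at 0. For Olfm4, the 10th percentile of cells lay at 11.72, the median at 13.87 and the 90th percentile at 14.61 on this scale (means over mice). For Lgr5 these values were 4.89, 8.20 and 9.54, so that the lower tail was the longer one in both, and in aged mouse 3 the 10th percentile of Lgr5 was 0.

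The relation of each marker to Lgr5 was described by Spearman's rho over the cells of each mouse at 100000 reads. Points of one mouse share a library preparation and a total, so that rho is given as a description. Olfm4 had the highest median rho with Lgr5, with 0.51, 0.50 and 0.43 in young mice 1 to 3 and 0.51, 0.57, 0.63 and 0.58 in aged mice 1 to 4. Smoc2 was alike, with 0.45, 0.50 and 0.51 in the young and 0.52, 0.62, 0.48 and 0.54 in the aged mice. For Slc12a2 rho was 0.40, 0.42 and 0.41 in the young and 0.41, 0.44, 0.54 and 0.48 in the aged mice. These 3 genes were thus positively related to Lgr5 in every mouse.

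The other 5 markers followed Lgr5 less closely. Median rho over 7 mice was 0.33 for Cdca7 (range 0.20 to 0.48), 0.32 for Prom1 (0.28 to 0.50), 0.28 for Cdk6 (0.01 to 0.55), 0.19 for Nrn1 (0.11 to 0.33) and 0.11 for Msi1 (0.03 to 0.35). Cdk6 varied most between mice and was close to 0 in aged mouse 3. Among the 11237 genes with a read in at least 20% of cells, Olfm4 ranked 5th and Smoc2 7th by their rho with Lgr5, behind Ivns1abp (0.59) and Rgmb (0.55), which ranked 1st and 2nd. Slc12a2 ranked 25th, Cdca7 84th, Prom1 101st, Cdk6 200th, Nrn1 746th and Msi1 2238th. A partial rho given the number of detected genes of a cell was near the plain value for each, at 0.51 for Olfm4, 0.50 for Smoc2 and 0.44 for Slc12a2.

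**Figure D2:**
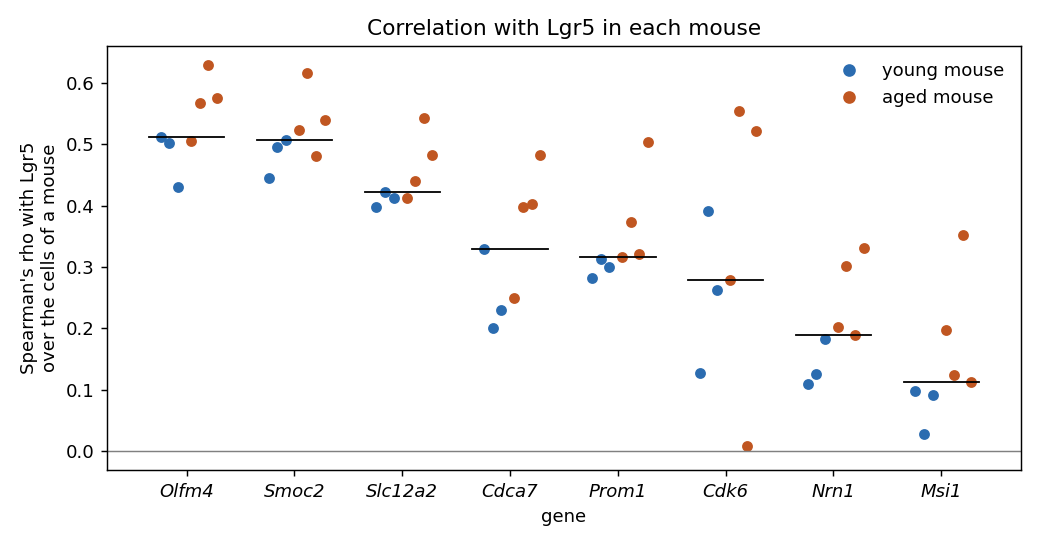
Spearman's rho with Lgr5 over the cells of each mouse at 100000 reads per cell, one point per mouse (blue young, orange aged) and a line at the median of 7 mice. Olfm4, Smoc2 and Slc12a2 lie between 0.40 and 0.63 in all mice, and Cdk6 runs from 0.01 to 0.55.

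The relation was also described by kind of cell within the gate. Each cell was assigned to the marker list with the highest mean level among 24 other ISC markers (Lgr5 included, the 8 members left out) and lists for Paneth, goblet, enteroendocrine, tuft, enterocyte, immune and stromal cells. The ISC list led in 82.5%, 91.1% and 88.3% of the cells of the young mice and in 82.5%, 66.1%, 64.6% and 65.3% of those of the aged mice. Within ISC-led cells, median rho with Lgr5 was 0.38 for Olfm4, 0.41 for Smoc2, 0.32 for Slc12a2, 0.21 for Prom1, 0.16 for Nrn1, 0.13 for both Cdca7 and Cdk6, and 0.04 for Msi1. Each of these was below the value over all cells, though Lgr5 had a part in the choice of these cells.

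Cells were also split by their Lgr5 level into 3 equal groups within each mouse, and the highest group was set against the lowest. Olfm4 was 1.66 ± 0.50 (SD, n = 7 mice) higher on the log2 scale in the highest group, Smoc2 1.29 ± 0.43, Slc12a2 1.25 ± 0.29 and Cdca7 1.22 ± 0.55. Nrn1 differed by 1.14 ± 0.48, Prom1 by 1.06 ± 0.38, Cdk6 by 0.95 ± 0.67 and Msi1 by 0.75 ± 0.69. All but Msi1 were higher in the highest group in 7 of 7 mice, with an exact sign-flip permutation p = 0.0156 for each, which is the smallest that 7 mice allow. Msi1 was higher in 6 of 7 mice (exact permutation p = 0.0312). These were 8 two-sided comparisons and the p-values are not adjusted. The share of all genes that would be higher in this way was not computed, so the result is not particular to these markers. This split was chosen after the small number of cells without Lgr5 had been seen.

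Cells without any Lgr5 read were few, 54 of 1732, with 5, 1 and 5 in young mice 1 to 3 and 2, 5, 20 and 16 in aged mice 1 to 4. Of these 54 cells, 52 held Olfm4 reads, 49 Smoc2, 48 Slc12a2, 48 Cdk6, 44 Prom1 and 39 Cdca7, while 13 held Msi1 and 12 Nrn1. Of the 1678 cells with Lgr5 reads, all 1678 held Olfm4, 889 (53.0%) Msi1 and 922 (54.9%) Nrn1. Before thinning, 56 of 57 cells without Lgr5 reads held Olfm4, and the median total of those 57 was 103974 reads against 309674 in the others. The lists that led the 54 cells also differed, with the ISC list in 17, the enterocyte list in 21, the goblet list in 8 and the Paneth list in 7. Among cells with Lgr5 reads, the ISC list led in 1373 (81.8%).

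Of the 8 members, 7 were lower in the cells without Lgr5 reads in every mouse, a count that was not made for all genes. The difference in the level of Olfm4 between cells with and without Lgr5 was 1.56, 2.04 and 2.08 on the log2 scale in the young and 1.55, 1.54, 2.09 and 5.12 in the aged mice. For Slc12a2 it was 3.23, 5.62 and 2.22 in the young and 1.34, 2.75, 1.26 and 3.01 in the aged mice. Smoc2 differed by 0.73, 0.96 and 0.66 in the young and by 0.65, 1.00, 0.71 and 3.75 in the aged mice. These 3 genes and Prom1, Msi1, Cdca7 and Nrn1 were higher with Lgr5 in 7 of 7 mice (exact sign-flip permutation p = 0.0156 each, the smallest possible, 8 comparisons, not adjusted). Without thinning, Msi1 no longer passed (0.98, exact permutation p = 0.109) and the mean for Smoc2 was 2.18 in place of 1.21, and at 50000 reads Msi1 did not pass either (0.81, exact permutation p = 0.0625).

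Cdk6 was different in this split. It was higher with Lgr5 in 3 of 7 mice, with a mean difference of -0.11 ± 2.52 (SD, n = 7, exact permutation p = 0.938), whereas in the split into 3 groups by Lgr5 level it was higher in every mouse, though by no more than 0.02 in aged mouse 3. The value of young mouse 2 rests on a single cell without Lgr5 reads, in which Prom1, Cdca7, Msi1 and Nrn1 were also at 0 and Cdk6 was at 12.76. Without that mouse, the mean for Prom1 was 2.10 in place of 3.03, that for Cdca7 2.10 in place of 3.01 and that for Cdk6 0.50. Without aged mouse 4, the mean for Smoc2 was 0.79 in place of 1.21. Within ISC-led cells, 17 cells of 6 mice had no Lgr5 read and differences were 0.50 for Smoc2, 1.16 for Slc12a2 and 1.22 for Olfm4. There the exact permutation p was 0.0312, the smallest that 6 mice allow, for Olfm4, Cdca7 and Nrn1, and 0.0625 for Smoc2, Slc12a2, Prom1 and Msi1.

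Among themselves, the markers formed a graded set led by Olfm4. The highest median rho of any pair was that of Olfm4 and Smoc2, 0.60, with 0.43, 0.48 and 0.47 in the young and 0.60, 0.62, 0.69 and 0.66 in the aged mice. Olfm4 and Cdca7 followed at 0.50, Olfm4 and Prom1 at 0.47, Smoc2 and Prom1 at 0.41, and Smoc2 with Cdca7 and with Cdk6 at 0.39 each. Slc12a2 was related more to Lgr5 (0.42) than to Cdca7 (0.35), Olfm4 (0.32), Prom1 (0.29) or Smoc2 (0.27). Msi1 was close to 0 with Cdk6 (0.02) and Nrn1 (0.06), and Cdk6 was close to 0 with Nrn1 (0.03). Msi1 and Nrn1 were at 0 in many cells at this depth, which lowers the rho they can reach.

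**Figure D3:**
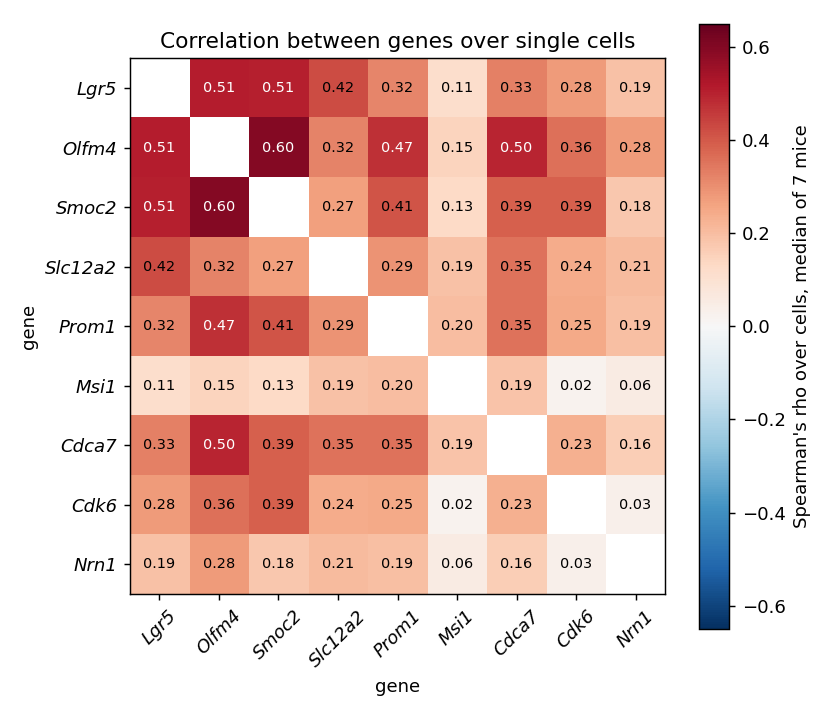
Median over 7 mice of Spearman's rho over cells for each pair of the 8 genes and Lgr5, at 100000 reads per cell, with the value in each square. Olfm4 and Smoc2 share the highest value (0.60), and the rows of Msi1 and Nrn1 are palest.

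Within ISC-led cells the median rho of Olfm4 and Smoc2 was 0.36, that of Olfm4 and Prom1 0.38 and that of Olfm4 and Cdca7 0.36, each lower than over all cells. For Slc12a2, it was 0.13 with Olfm4, 0.05 with Smoc2, 0.10 with Cdca7 and 0.13 with Prom1.

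The genes most like each marker over all cells were named by the median rho over 7 mice. For Olfm4 these were Ivns1abp, a kelch-family protein (0.63), Smoc2 (0.60) and Clca3b, of the calcium-activated chloride channel regulators (0.59), and Lgr5 ranked 10th. For Smoc2 they were Olfm4, Pabpc1, which binds poly(A) tails (0.51), and Igfbp4, which binds insulin-like growth factors (0.51), with Lgr5 4th. Prom1 was most like Olfm4 (0.47), Clca3b (0.46) and Ivns1abp (0.43), with Smoc2 5th and Lgr5 27th. Clca3b and Ivns1abp thus stood among the first 3 for both Olfm4 and Prom1.

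For Slc12a2, the first neighbour was Eef1a1, a translation elongation factor (0.52), followed by Xist, the RNA of the inactive X chromosome (0.49), and Rgmb, a co-receptor for bone morphogenetic proteins (0.49). Lgr5 ranked 24th and Olfm4 126th. Cdca7 was most like Pabpc1 (0.53), the chaperone gene Hsp90ab1 (0.51) and the ribosomal protein gene Rpl4 (0.51), and Olfm4 ranked 4th.

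Cdk6 was most like Sdc4, a cell-surface heparan sulfate proteoglycan (0.48), Ppp1r1b, an inhibitor of protein phosphatase 1 (0.47), and Gm17590 (0.46), the antisense gene with which it shares exonic bases. Smoc2 ranked 9th for Cdk6 and Lgr5 97th. The gene most like Nrn1 was Fars2 (0.33), with which it shares exonic bases, ahead of Olfm4 (0.28) and Rplp0 (0.27). Msi1 was most like Prom1 (0.20), Slc12a2 (0.19) and Npm1, a nucleolar protein (0.19), all of them weak. How far shared reads enter the values of Gm17590 and Fars2 was not tested.

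Scores of gene lists over the same cells placed the markers differently. All 8 genes varied with the mean of the other ISC markers in 7 of 7 mice, Olfm4 most (median rho 0.60, range 0.51 to 0.78), then Smoc2 (0.56), Cdca7 (0.52), Slc12a2 (0.45), Prom1 (0.39), Cdk6 (0.28), Nrn1 (0.27) and Msi1 (0.24). Among cell cycle genes, Cdca7 alone of the 8 was positive with the mean of 18 S-phase genes in 7 of 7 mice (median 0.21, range 0.06 to 0.37). Given the number of detected genes, with which Cdca7 itself had a median rho of 0.22, this median was 0.09, and in ISC-led cells it was 0.08. With the mean of 16 genes of G2 and mitosis, Slc12a2 (-0.28), Cdk6 (-0.21), Olfm4 (-0.12) and Lgr5 (-0.24) were negative in 7 of 7 mice. Cdca7 (0.01) and Smoc2 (-0.04) had no common sign over the mice. With the mean of 10 Notch pathway genes the medians of all 8 lay between 0.02 and 0.12, and each gene was negative in at least 1 mouse. That list holds receptors and ligands beside target genes, so that its mean is no measure of the activity of the pathway.

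The markers were lower, but not absent, in cells led by the list of another type. In Paneth-led cells (144 cells of 7 mice), Olfm4 was 1.99 ± 0.31 (SD, n = 7) lower on the log2 scale than in the ISC-led cells of the same mouse, Smoc2 1.57 ± 0.31, Cdca7 1.55 ± 0.47, Prom1 1.45 ± 0.22, Cdk6 1.25 ± 0.33, Nrn1 1.07 ± 0.50, Slc12a2 1.07 ± 0.53 and Msi1 0.78 ± 0.30. Each was lower in 7 of 7 mice. In enterocyte-led cells (124 cells of 6 mice), the difference was 1.99 ± 0.56 for Olfm4 and 1.72 ± 0.89 for Slc12a2, and all 8 were lower in 6 of 6 mice. Lgr5 was 2.67 ± 0.78 lower in enterocyte-led cells, but it was in the list that defined the ISC-led ones. Goblet-led cells were counted in 4 mice with at least 5 such cells, where Prom1 and Msi1 were lower in 3 of 4 mice, the other 6 members in 4 of 4, and Slc12a2 by 0.71 ± 0.05. Tuft-led and enteroendocrine-led cells were too few for such a comparison. Olfm4 was still read in 100.0% of Paneth-led cells at this depth, and in 97.9% to 100.0% of enterocyte-led cells.

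**Figure D4:**
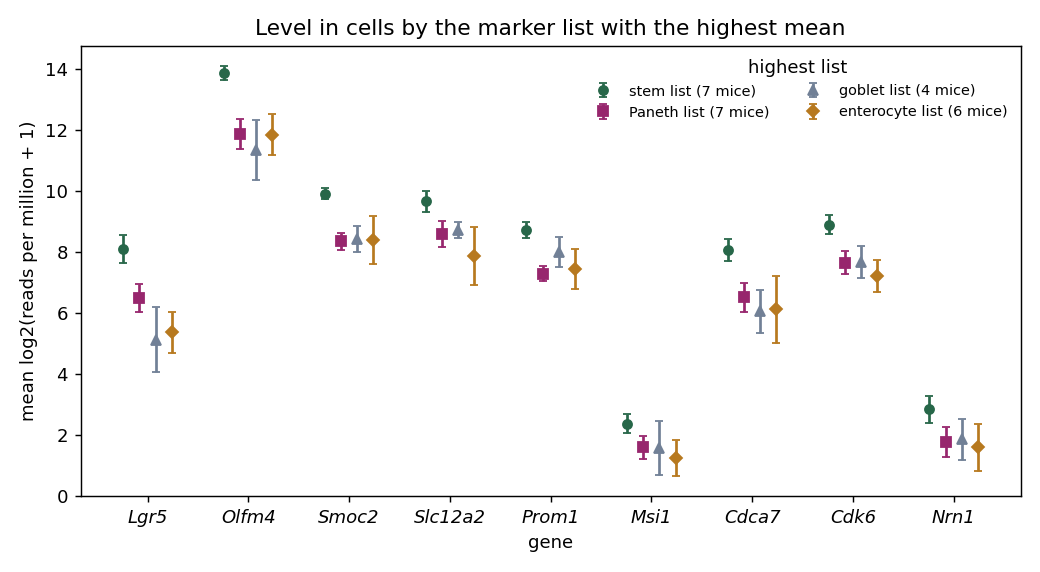
Mean log2(CPM + 1) of Lgr5 and the 8 genes at 100000 reads per cell, in cells grouped by the marker list with the highest mean, as the mean of the mice with at least 5 such cells and its SD. Among ISC-, Paneth-, goblet- and enterocyte-led cells, ISC-led cells are highest for all 9 genes, and the mean of Olfm4 is 11.35 or more in the other groups.

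For the question of age, the reads of all kept cells were summed per mouse, so that 3 young were set against 4 aged mice. In such sums, fewer cells of a type and less RNA per cell cannot be told apart. None of the 8 genes passed an adjusted p of 0.05 in edgeR's quasi-likelihood test, nor did any of the 20957 genes tested (0% called). At an unadjusted p under 0.05, 1098 genes stood (5.24%), 2.54% lower and 2.7% higher in aged mice, and Msi1 was the only one of the 8 among them. DESeq2 called 177 genes (0.848%) and none of the 8. With a code in the cell names, shared by 384 cells each, as a block, 5 of the 8 were lower at an unadjusted edgeR p under 0.05, Smoc2 (0.00369), Msi1 (0.00561), Cdca7 (0.007), Slc12a2 (0.0172) and Cdk6 (0.0332), beside 3.54% of 20218 genes that were lower and 7.57% in either direction. None of the 8 passed after adjustment there (lowest adjusted p 0.53), and that fit had 2 residual degrees of freedom over 8 sums, in which young mouse 2 stood as 2 sums.

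Msi1 was at 16.2, 16.4 and 14.7 CPM (of summed reads, TMM-scaled) in young mice 1 to 3 and at 8.71, 9.34, 10.4 and 12.0 in aged mice 1 to 4. All aged mice were below all young mice. The log2 difference, aged minus young, was -0.64 ± 0.20 (SE, edgeR p = 0.00926, adjusted p = 0.713).

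Smoc2 was at 1123, 1132 and 1011 CPM in the young and at 941, 851, 888 and 884 in the aged mice, and the groups did not overlap either. Its log2 difference was -0.29 ± 0.14 (SE, edgeR adjusted p = 0.97), with an unadjusted p of 0.0626 in edgeR, 0.04 in DESeq2 and 0.038 in limma. Among all genes tested, 3.10% had all aged below all young mice and 2.51% the reverse, against which 2 of the 8 members were lower without overlap and 0 higher.

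Olfm4 was at 13788, 16481 and 13145 CPM in the young and at 19561, 14739, 11322 and 14305 in the aged mice. The aged mice held both the highest and the lowest value, and the log2 difference was 0.05 ± 0.20 (SE, edgeR adjusted p = 1.00). Prom1 was at 471, 447 and 465 in the young and at 655, 395, 410 and 465 in the aged mice, with the young mice close together and within the range of the aged. Its log2 difference was 0.06 ± 0.20 (SE).

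Slc12a2 was at 846, 1039 and 813 CPM in the young and at 899, 889, 556 and 590 in the aged mice. Aged mice 3 and 4 were the lowest, and the other 2 aged mice lay within the young range, with a log2 difference of -0.29 ± 0.22 (SE). Cdca7 showed a like order, with 278, 413 and 282 in the young and 339, 279, 209 and 210 in the aged mice (log2 difference -0.32 ± 0.23). Cdk6 was at 841, 612 and 721 in the young and at 586, 463, 743 and 490 in the aged mice (-0.35 ± 0.20), where aged mouse 3 was above 2 of the young mice. Nrn1 was at 13.9, 28.0 and 27.3 in the young and at 25.8, 28.7, 19.2 and 23.5 in the aged mice (0.07 ± 0.26), with young mouse 1 the lowest. Lgr5, for comparison, was at 337, 416 and 451 in the young and at 361, 311, 177 and 338 in the aged mice (-0.44 ± 0.24). Single mice moved these differences, to -0.11 for Cdca7 without young mouse 2, to -0.17 and -0.18 for Slc12a2 without aged mouse 3 and without young mouse 2, to -0.22 for Cdk6 without young mouse 1 and to -0.25 for Lgr5 without aged mouse 3.

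**Figure D5:**
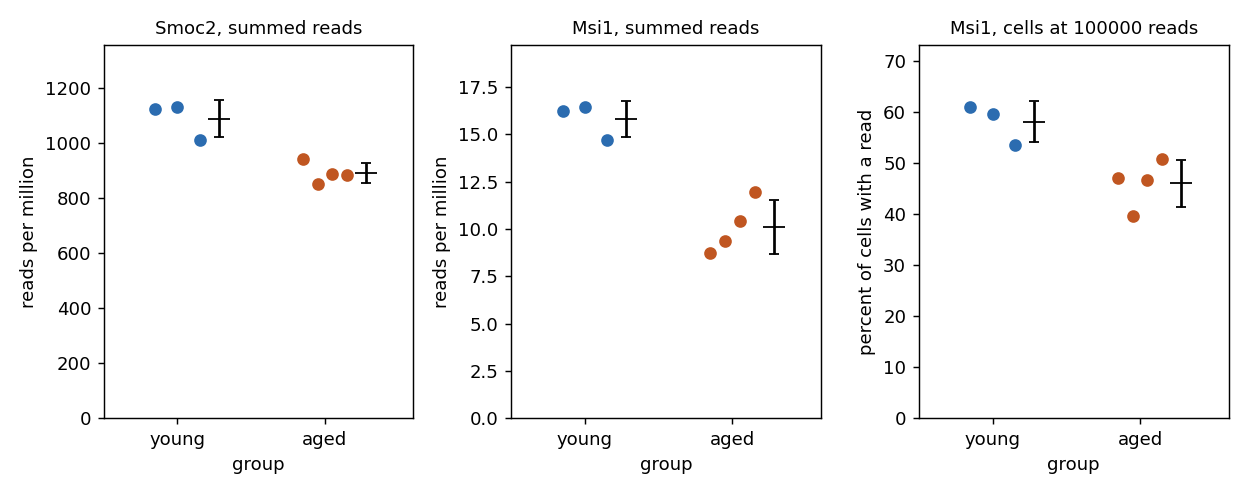
CPM of Smoc2 and Msi1 summed per mouse, and percent of cells with a Msi1 read at 100000 reads per cell, with one point per mouse and the mean ± SD beside each group of 3 young and 4 aged mice. All aged points lie below all young points in the 3 panels.

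Over the 8 members, 5 had a negative and 3 a positive log2 difference, with a median of -0.29 beside 0.01 over all genes tested, of which 48.3% were negative. Of the 24 other ISC markers, 21 were negative, with a median of -0.16. None of these passed the threshold, and the 2 with the smallest unadjusted p were Etv5, an ETS transcription factor (log2 difference 1.32 ± 0.39, SE, edgeR adjusted p = 0.694), and Ephb3, a receptor for ephrins that positions cells along the crypt (-0.47 ± 0.16, adjusted p = 0.808). Of the 11 tested paralogs, 7 were negative, with a median of -0.10, and of 9 tested Notch pathway genes 3 were negative (median 0.29). The 10 tested genes around Cdk6 in the cell cycle (D-type cyclins, inhibitors, Cdk4, Rb1 and E2f1) had 4 negative values and a median of 0.01. S-phase genes (6 of 18 negative, median 0.08) and genes of G2 and mitosis (4 of 16, median 0.11) lay above 0.

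Markers of other cell types were measured in the same sums. The median log2 difference was 0.61 over 10 Paneth genes (9 positive), 0.84 over 8 goblet genes (8 positive), 1.23 over 12 enterocyte genes (10 positive) and 1.67 over 10 enteroendocrine genes (8 positive), with none past the threshold in edgeR. Their part in the members' values was not tested. Summed enterocyte markers ran from 1444 to 1727 CPM in the young and from 1475 to 3252 in the aged mice, and summed Paneth markers from 6969 to 23505 and from 10447 to 25863. Tuft markers (5 of 7 tested positive) ran from 6.84 to 81.8 and from 38.9 to 154. Immune markers, at 7.67 to 12.7 in the young and 4.13 to 12.7 in the aged mice, and stromal markers, at 2.53 to 4.35 and 1.97 to 17.4, were low. Immediate early genes ran from 1179 to 2423 and from 1745 to 2597. The T-cell genes Cd3e and Cd3g and the collagen genes Col1a1, Col1a2 and Col3a1 were too low to be tested. In sums of ISC-led cells alone, none of the 8 members passed the threshold either.

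The share of cells with a read gave the same direction between the groups for Msi1, though not the same order of mice. At 100000 reads per cell, Msi1 was read in 61.0%, 59.7% and 53.5% of the cells of the young mice and in 47.0%, 39.7%, 46.6% and 50.7% of those of the aged mice. The groups did not overlap, and the means differed by -12.0 percentage points (exact permutation test over mice, two-sided, p = 0.0286, the smallest that 3 against 4 mice allow). That p is not adjusted. The comparison was 1 of 9 of this kind and did not pass after adjustment over them (exact permutation test, adjusted p = 0.257). Without thinning the difference was -10.4 points (exact permutation p = 0.0571, not adjusted), and in ISC-led cells it was -8.38 points (exact permutation p = 0.0857, not adjusted). The share and the summed level use the same reads. The other 7 members and Lgr5 had unadjusted p from 0.286 to 1.00 by the same exact test. Nrn1 was read in 44.5%, 61.4% and 56.2% of the cells in the young and in 44.0%, 54.2%, 43.2% and 58.1% in the aged mice, with overlap.

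The labels do not explain the code in the cell names, and 3 of the 5 codes held both an aged and a young mouse. Within these codes, Msi1 was read in 47.0% of cells of aged mouse 1 against 59.2% of young mouse 2, in 46.6% of aged mouse 3 against 61.0% of young mouse 1, and in 39.7% of aged mouse 2 against 60.1% of young mouse 2. Young mouse 2 is thus set against both aged mouse 1 and aged mouse 2, so that the codes are not independent. The mean level was lower in the aged mouse in 3 of 3 codes for 6 of the 8 members and for Lgr5, a count not given here for all genes. In the same order, the log2 differences were -0.67, -0.71 and -1.01 for Msi1, -0.46, -0.41 and -0.69 for Smoc2, and -0.23, -0.60 and -0.66 for Slc12a2. Those of Cdca7 were -0.22, -0.27 and -0.92, those of Cdk6 -0.41, -0.33 and -1.04, and those of Nrn1 -1.06, -0.07 and -0.24, beside -0.30, -1.36 and -0.97 for Lgr5. Olfm4 (0.15, -0.41 and -0.54) and Prom1 (0.45, -0.17 and -0.50) had no common direction. Aged mouse 4 and young mouse 3 each filled a code of their own.

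The spread of a marker over the cells of a mouse was compared between ages too. The SD of Smoc2 on the log2 scale was 0.95, 0.84 and 1.00 in the young and 1.05, 1.43, 0.95 and 1.62 in the aged mice, and that of Olfm4 1.46, 1.05 and 1.18 against 1.22, 1.46, 1.51 and 2.03. Both groups overlapped for each (exact permutation p = 0.171 for both). Msi1 had the lowest p of the 9 genes (0.0571, exact permutation test), with an SD of 2.32 to 2.37 in the young and of 2.10 to 2.28 in the aged mice. No test of spread passed 0.05 at this depth. Without thinning, the SD of Smoc2 was 0.68 higher in the aged mice (exact permutation p = 0.0286, not adjusted), while in ISC-led cells it was 0.08 higher (exact permutation p = 0.686).

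The rho with Lgr5 was on average higher in the aged mice for all 8 genes, with no test past 0.05 at 100000 reads. Without thinning, the difference was 0.12 for Olfm4 and 0.18 for Msi1 (exact permutation p = 0.0286 each, not adjusted), and in ISC-led cells 0.01 and 0.06 (exact permutation p = 0.857 and 0.657). At 100000 reads, the largest differences were those of Cdca7 (0.25 against 0.38, means of the young and aged mice), Msi1 (0.07 against 0.20) and Nrn1 (0.14 against 0.26). For Olfm4 the means were 0.48 ± 0.04 (SD, n = 3) and 0.57 ± 0.05 (SD, n = 4), with an exact permutation p = 0.0857, which was with Nrn1 the lowest of the 8 comparisons. For Smoc2 p was 0.2 and for Slc12a2 0.171 in the same exact test. The share of ISC-led cells was lower in aged mice 2 to 4, and its part in these values was not tested. In ISC-led cells alone, the difference was reversed for Smoc2, at -0.02.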

How the data were processed

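Single Lgr5 GFP-high cells of 3 young and 4 aged mice were sequenced single-end after a Smart-seq2-type protocol (the labels name a SMARTER kit). The authors aligned reads to GRCm38 with HISAT2 and examined mapping with Picard, and the deposited table holds unnormalized read counts of 55471 genes in 1920 cells. HTSeq is named in the submitters' processing notes. No source used here gives versions or says whether counting used strand. Every column was assigned to a mouse by its name, and 55230 identifiers were matched to GENCODE M21 for symbols, exon lengths and coordinates.

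Filtering at 1000 detected genes left 1836 cells (median 305492 reads). Without molecular identifiers, counts are of reads and not of molecules, so that thinning brings cells to equal reads alone. Doublets were not called. Summed counts per mouse were tested with edgeR 4.0.16 (TMM, filterByExpr, quasi-likelihood test, Benjamini-Hochberg over all genes). DESeq2 1.42.0 and limma 3.58.1 under R 4.3.3 served as alternatives. For single cells, reads were thinned to 100000 per cell, which left out 104 cells, and values are log2(CPM + 1). Values per mouse were compared with exact permutation tests in Python 3.11.15, at a threshold of 0.05. The edgeR step was tested on simulated data. Of 200 genes given a log2 change of 1 there, 2.5% were called at the adjusted threshold, and 97.5% when given a change of 2. A change of 1 was thus mostly missed.

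Named were the 8 members, Lgr5, the 3 genes with the highest median rho for each member, listed paralogs (1 of them is not reported here), and list genes past the threshold or, as none passed, the 2 other ISC markers with the smallest p. Fars2, Gm17590, Gm6999 and Gm16401 were named as overlapping genes after their positions were seen. The members and lists were chosen with earlier results of these data known. The labels do not say whether mice were littermates, so p-values measure the spread between these 7 mice.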

Additional observations from a re-analysis of the deposited data

Results flagged for a closer look

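In 4 of 43 sets of values, 1 mouse lay apart from the others by Dixon's test, which flags about 1 in 20 sets of normally distributed values. Olfm4 was read in 99.4% of the cells of aged mouse 4, while the other 3 aged mice were tied at 100.0%, so that any lower value would be flagged. The difference between cells with and without Lgr5 reads in aged mouse 4 was the highest of 7 mice for Olfm4, at 5.12 on the log2 scale, and for Smoc2, at 3.75. For Prom1 the highest was young mouse 2, at 8.59, a mouse with 1 cell without Lgr5 reads.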

How the results depend on the processing

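No member passed the threshold between ages under any alternative, where the lowest adjusted p was 0.12 (Msi1, DESeq2). The count of all genes called was 0 in edgeR and became 177 with DESeq2, 2 with limma voom, 22 without the filter on low counts, 3 in ISC-led cells, 15 after thinning, 1 with the code of the cell names as a block and 0 to 8 with 1 mouse left out (8 without aged mouse 1). Fitted with the replicate number as a block, 0 genes were called, and the numbers did not pair the mice (correlations of deviations -0.16, 0.27 and -0.34 for numbers 1 to 3). The sign of the log2 difference turned for Olfm4 with library sizes alone (-0.0051) and with the code as a block (-0.078), and for Nrn1 after thinning (-0.17). Leaving out 1 mouse gave -0.11 to 0.17 for Olfm4, -0.12 to 0.15 for Prom1 and -0.19 to 0.24 for Nrn1.

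Between cells with and without Lgr5 reads, 7 of the 8 members passed 0.05 after adjustment over the 8 comparisons, and 0 in ISC-led cells, where 17 such cells of 6 mice remained and differences were 1.22 for Olfm4, 0.50 for Smoc2, 1.16 for Slc12a2, 2.32 for Prom1, 1.03 for Msi1, 1.82 for Cdca7, 0.60 for Cdk6 and 1.70 for Nrn1. Msi1 no longer passed without thinning (0.98) or at 50000 reads (0.81), and Smoc2 moved from 1.21 to 2.18 without thinning. Cdk6 turned positive without thinning (0.69), at 50000 reads (0.39) and between the highest and lowest of 3 groups by Lgr5 (0.95), and ran from -0.66 to 0.50 with 1 mouse left out. The cause was not tested. How many of all genes would pass between cells with and without Lgr5 reads was not counted.

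Other differences between ages that turned sign were small. In ISC-led cells these were the share of cells for Cdca7 (0.000202 percentage points), the spread of Olfm4 (-0.10) and Cdca7 (-0.066) and the rho of Smoc2 with Lgr5 (-0.018), and by Pearson's r that of Slc12a2 (-0.017). With 1 mouse left out, the share for Cdca7 ran from -0.90 to 0.39, and the spread from -0.035 to 0.26 for Slc12a2, from -0.10 to 0.22 for Cdca7 and from -0.095 to 0.011 for Nrn1. At 100000 reads, many cells held no read of Msi1 or Nrn1.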
